A study of Rattus norvegicus with 46 samples.

Results

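The genes described are those for tumour necrosis factor and for the proteins that carry NF-kB signalling and switch it off again: Tnf, Nfkbia, Nfkbiz, Nfkbie, Tnfaip3, Nfkb1, Nfkb2, Relb, Birc3 and Bcl3. They were chosen by name, as every feature that the array annotation gives one of these 10 symbols. Of the 10, 7 have a feature, 1 each, among 23188 features tested: Tnf (TSUnmapped00000006.rn.2), Nfkbia (TC0600002478.rn.2), Nfkbie (TC0900001607.rn.2), Nfkb1 (TC0200004748.rn.2), Nfkb2 (TC0100003732.rn.2), Birc3 (TC0800001899.rn.2) and Bcl3 (TC0100004940.rn.2). Nfkbiz, Tnfaip3 and Relb have none under their symbols and are not analysed here. In the reference gene table Slc35b2 is also listed as a synonym for Nfkbie and Birc2 for Birc3, so those names are less certain than the others.

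The samples were 46 punch biopsies, 5 mm wide, of abdominal skin from 9 Sprague-Dawley rats, each hybridized to 1 single-colour Clariom S array. The 6 baseline biopsies came from day -10, before any treatment. On days -4, 1, 3, 7 and 14 there were 3 arrays of irradiated skin with RTA-408, 3 of irradiated skin with vehicle (DMSO) and 2 of unirradiated skin with vehicle. RTA-408 is a synthetic triterpenoid that activates NRF2, the transcription factor of antioxidant and detoxifying genes, and the study asked what it does to radiation damage in normal tissue. RTA-408 or vehicle was injected on days -7, -5, -3 and 0, and the irradiated arms received 40 Gy of 6 MeV electrons in 4 fractions of 10 Gy over 8 days. Day -4 thus fell within the radiation course. The unirradiated arm had sham sessions and the same vehicle, there is no unirradiated arm with RTA-408 among these samples, and the labels give neither age nor sex of the rats. Each rat gave more than 1 of these biopsies, so that most later biopsies also followed earlier punches, in the unirradiated arm too. Rats 303 and 320 have arrays from day -4 on but none at baseline. In the unirradiated arm rat 317, with no earlier array, replaced rat 318 on days 7 and 14. Whether these rats were punched before their first array cannot be told from the arrays.

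NF-kB dimers are held in the cytoplasm by inhibitors of the IkB family until a signal from a receptor such as that for TNF has the inhibitor destroyed. The freed dimers then switch on, beside cytokines and adhesion molecules, the genes of their own inhibitors and precursors, which is why these genes serve as a readout of the pathway. In skin the pathway is known for its part in inflammation, in wound repair and in the survival of irradiated cells.

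The promoters of the inhibitors and subunits are shown because they were searched for the kB consensus, the kind of sequence that NF-kB binds. RefSeq promoter windows of 300 bases (250 before and 50 after the start, build GRCr8) were found for 8 of the 10 genes. The 10-base kB consensus, searched on both strands, was found in 7 of these 8, all but Tnf, and in 1400 of all 33469 windows (4.18%). Stretches around the match in 5 measured genes follow, read 5′ to 3′ on the strand of the gene, with the match in capitals.
Nfkbia: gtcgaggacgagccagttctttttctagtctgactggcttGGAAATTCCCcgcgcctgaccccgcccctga
Nfkbie: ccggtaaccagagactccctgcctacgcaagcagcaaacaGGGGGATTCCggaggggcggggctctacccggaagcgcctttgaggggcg
Nfkb1: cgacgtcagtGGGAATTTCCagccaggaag
Nfkb2: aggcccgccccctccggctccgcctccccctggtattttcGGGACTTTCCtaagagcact
Bcl3: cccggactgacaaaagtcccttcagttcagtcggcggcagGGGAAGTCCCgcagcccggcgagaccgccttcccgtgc
These stretches lie at chr6:78597073-78597143 (minus strand) for Nfkbia, chr9:22947987-22948076 (minus) for Nfkbie, chr2:226805440-226805469 (minus) for Nfkb1, chr1:255108314-255108373 (plus) for Nfkb2 and chr1:88613556-88613633 (minus) for Bcl3. Counted from the start on which the RefSeq window is built, which need not be the outermost start of the gene, the match runs from -31 to -22 in Nfkbia, -164 to -155 in Nfkbie, 4 to 13 in Nfkb1, -20 to -11 in Nfkb2 and -38 to -29 in Bcl3. In Nfkbia and Bcl3 the consensus reads on the opposite strand. A match says only that these letters are in the window.

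All values are deposited log2 signals, and differences are differences of mean log2 signal on that scale. The signals reach 19.93, more than raw scanner values can give, so differences are not turned into folds. The medians of the 1153 negative control features ran from 5.78 to 6.52 over the arrays and serve here as the level of the controls. Nfkbia, Nfkb1 and Nfkb2 were above it on 46 of 46 arrays, Nfkbie on 31, Bcl3 on 30 and Birc3 on 20, and where a group mean was at or below it a called difference is given as "at least". Differences under other settings, within batches and within rats are given as fitted or measured and are no bounds. Nfkbie, Birc3 and Bcl3 were above the 95th percentile of the control features on 0 of 46 arrays and Nfkb2 on 1. The mean signals of Nfkbie, Birc3 and Bcl3 lay at percentiles 46.2, 43.3 and 47.1 of all features, and that of Nfkb2 at 66.2. Signal near the controls thus limits Nfkbie, Birc3 and Bcl3. Labelling spike-ins divide the arrays into 3 sets, here called labelling batches I (18 arrays), II (10) and III (18), which the labels do not name. All baseline arrays are in batch I, and on days 3, 7 and 14 the other arrays are in batches II and III, so that on those days the batch and the difference from baseline cannot be told apart within a batch. The array of irradiated vehicle skin, day 14, replicate 3, stands apart, and where a fit without it changes a call, that is given beside the result. Since all groups share 1 estimate of the spread, leaving it out also changes calls on other days and in other arms. The 10 macrophage and monocyte markers averaged 14.98 on it, against 7.40 to 12.56 on the other 45 arrays, and 6 neutrophil markers averaged 10.65 against 4.82 to 9.38. The skin origin of the biopsies was borne out by keratinocyte and fibroblast markers, with Krt14 and Col1a1 above the controls on 46 of 46 arrays. Skeletal muscle varied between biopsies, with Ckm between 5.98 and 18.98.

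**Figure D1:**
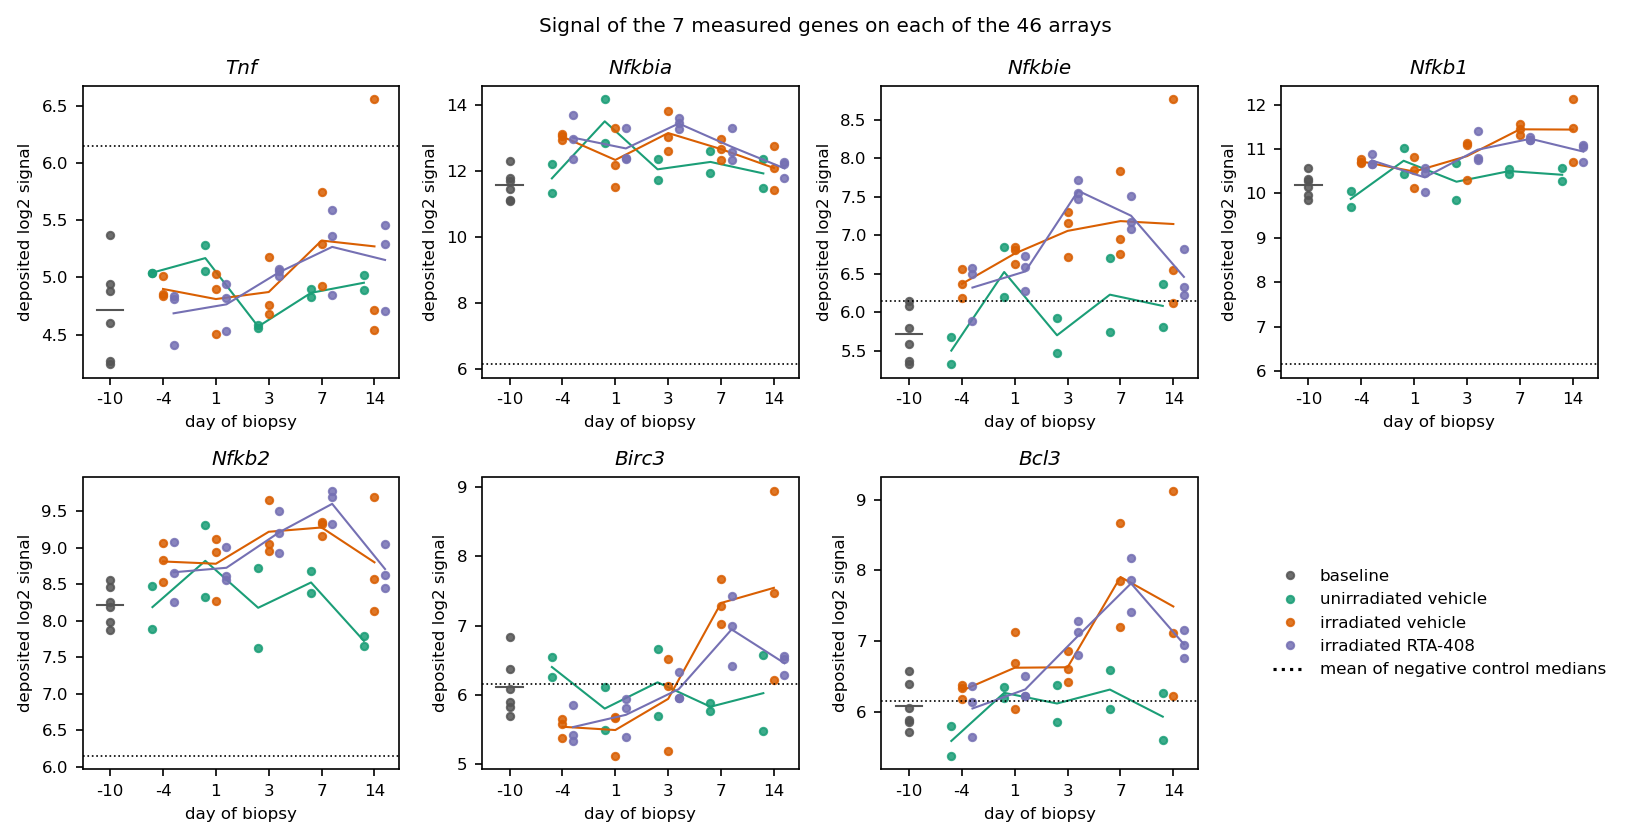
Deposited log2 signal (vertical axis) of each of the 7 genes by day of biopsy (horizontal axis, evenly spaced), with 1 point per array, a line through the group means of each arm and a bar at the baseline mean; the dotted line is the mean of the negative control medians. Tnf lies below the dotted line on 45 of 46 arrays. The highest group mean of Bcl3 is that of irradiated vehicle skin on day 7 (7.91). The highest of Birc3 is that of irradiated vehicle skin on day 14 (7.54, from signals of 6.22 to 8.94).

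Tnf, the cytokine that sets off the pathway through its receptors, could not be told from the negative controls. It was above their median on 1 of 46 arrays, that of irradiated vehicle skin on day 14, replicate 3 (6.56), and ranged from 4.24 to 5.75 on the others. At baseline the lowest, median and highest signals were 4.24, 4.74 and 5.37, and on day 7 the irradiated vehicle arrays gave 4.93, 5.29 and 5.75. These groups overlap. limma called Tnf in none of the comparisons, with a smallest adjusted p of 0.169 (irradiated vehicle skin against baseline, day 7). Without the array of irradiated vehicle day 14 replicate 3 that adjusted p was 0.0425, with both groups still at the control level. A change of Tnf was therefore not measurable with this feature.

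Nfkbia, which encodes IkB-alpha, the inhibitor that is remade first after NF-kB is freed, was the earliest of these genes to be called higher than baseline. Its baseline signals ran from 11.08 to 12.28 with a median of 11.56. On day -4 they were 13.12, 12.93 and 13.04 in irradiated vehicle skin and 12.96, 12.35 and 13.69 in irradiated RTA-408 skin. All 6 irradiated arrays were above all 6 baseline arrays. The differences of 1.47 ± 0.37 (SE; adjusted p = 0.00796) with vehicle and 1.44 ± 0.37 (SE; adjusted p = 0.0157) with RTA-408 made Nfkbia the only 1 of the 7 genes called in either arm, where 6.46% and 4.22% of all features were called higher. Within batch I the differences were 1.42 and 1.09 (2 arrays against 6 each). Both calls remained when the labelling batch was a block (adjusted p = 0.0126 and 0.0233). The vehicle call was lost without replicate 1 of that group (adjusted p = 0.0543) and the RTA-408 call without replicate 3 (adjusted p = 0.242).

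On day 1 Nfkbia gave 12.17, 11.52 and 13.30 in irradiated vehicle skin, which overlap the baseline (difference 0.76, adjusted p = 0.215). With RTA-408 the signals were 12.34, 13.31 and 12.38 and the difference 1.11 ± 0.37 (SE; adjusted p = 0.0457). That call was lost with quantile normalization, with the batch block and without any of 8 of the 9 arrays compared (adjusted p up to 0.282). On day 3 Nfkbia was at its highest in both irradiated arms, with 13.02, 12.60 and 13.81 with vehicle and 13.60, 13.26 and 13.44 with RTA-408. All 6 exceeded the baseline arrays, by 1.58 ± 0.37 (SE; adjusted p = 0.00456, and 0.0798 without replicate 3) and 1.87 ± 0.37 (SE; adjusted p = 0.000744). On day 7 the means were still higher by 1.09 and 1.16 (adjusted p = 0.0425 and 0.0266), calls that were lost without any of 7 and any of 4 of the 9 arrays compared (adjusted p up to 0.213 and 0.208). On day 14 the signals of 11.41, 12.09 and 12.75 with vehicle and 11.77, 12.26 and 12.19 with RTA-408 overlapped the baseline (adjusted p = 0.408 and 0.436). Nfkbia was thus highest on day 3 and nearest to baseline on day 14 in both arms, but the test for a change over the 5 days did not pass in either arm (adjusted p = 0.253 and 0.233).

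Nfkbie, which encodes IkB-epsilon, another NF-kB inhibitor that is itself a target, was at the control level at baseline, where its signals ran from 5.33 to 6.15. On day 1 the irradiated vehicle arrays gave 6.81, 6.85 and 6.63, at least 0.59 higher (adjusted p = 0.0435), and Nfkbie was the only 1 of the 7 genes called, with 5.08% of all features called higher. That call was lost without any of 7 of the 9 arrays compared (adjusted p up to 0.143). With RTA-408 on day 1 the signals were 6.58, 6.73 and 6.28 and did not pass, but did without irradiated vehicle day 14 replicate 3 (adjusted p = 0.0193). On day 3 the signals were 7.15, 6.72 and 7.30 with vehicle and 7.47, 7.73 and 7.54 with RTA-408. The groups do not overlap with baseline, and the differences were at least 0.89 (adjusted p = 0.00889, and 0.068 without vehicle replicate 3) and at least 1.41 (adjusted p = 0.000296). On day 7 they were at least 1.02 (adjusted p = 0.00228, and 0.0585 without vehicle replicate 3) and at least 1.09 (adjusted p = 0.00123). On day 14 Nfkbie stayed higher in irradiated vehicle skin by at least 0.98 (adjusted p = 0.00267), which rested on 1 array: the signals were 6.12, 6.55 and 8.77, and without replicate 3 the adjusted p was 0.203. With RTA-408 on day 14 they were 6.83, 6.22 and 6.33 (adjusted p = 0.172, and 0.0359 without that array).

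Nfkb1 encodes p105, the precursor of the p50 subunit, which in its uncut form also acts as an inhibitor. It lay between 9.86 and 10.57 at baseline. On day -4 the signals were 10.71, 10.77 and 10.69 in irradiated vehicle skin and 10.67, 10.88 and 10.67 with RTA-408. All 6 lie above all baseline arrays, but the differences of 0.53 and 0.55 did not pass (adjusted p = 0.15 and 0.168; unadjusted p = 0.029 and 0.0232). The irradiated vehicle arrays gave 11.31, 11.46 and 11.57 on day 7 and 10.72, 11.47 and 12.12 on day 14. Both sets lie above all baseline arrays, by 1.25 ± 0.23 (SE; adjusted p = 0.000204) and 1.24 ± 0.23 (SE; adjusted p = 0.000201). With RTA-408 the signals were 11.41, 10.75 and 10.80 on day 3, 11.21, 11.27 and 11.21 on day 7 and 11.09, 11.04 and 10.70 on day 14. These too exceeded all baseline arrays, with differences of 0.79, 1.04 and 0.75 (adjusted p = 0.0239, 0.00142 and 0.0321). Single arrays ended the day 3 call (RTA-408 replicate 1, baseline replicates 3 or 6; adjusted p up to 0.2) and the day 14 call (RTA-408 replicates 1 or 2, baseline replicates 1, 3 or 6; adjusted p up to 0.144). On day 3 the vehicle signals of 10.30, 11.09 and 11.13 overlapped the baseline and did not pass. Without irradiated vehicle day 14 replicate 3 the difference did pass (0.65, adjusted p = 0.0441). On day 1 both irradiated arms overlapped the baseline (10.81, 10.54 and 10.13 with vehicle, and 10.47, 10.04 and 10.58 with RTA-408).

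Nfkb2 encodes p100, the precursor of p52 and the inhibitor that the alternative NF-kB pathway removes. Its baseline signals ran from 7.87 to 8.56. On day 3 they were 9.05, 9.65 and 8.95 in irradiated vehicle skin and 9.50, 9.20 and 8.92 with RTA-408, each group above all baseline arrays by 1.00 and 0.99 (adjusted p = 0.018 and 0.0174). The vehicle call was lost without replicate 2 (adjusted p = 0.152) and the RTA-408 call without replicates 1 or 2 (adjusted p up to 0.111). On day 7 the signals were 9.15, 9.35 and 9.32 with vehicle and 9.69, 9.33 and 9.78 with RTA-408. The differences were 1.05 ± 0.28 (SE; adjusted p = 0.00725) and 1.38 ± 0.28 (SE; adjusted p = 0.000432). On day 14 the vehicle arrays ranged from 8.13 to 9.69 and overlapped the baseline (adjusted p = 0.172).

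Bcl3, an atypical IkB protein that works in the nucleus with p50 and p52 homodimers, was at the control level at baseline and moved late. At baseline it ran from 5.72 to 6.57. On day 7 it reached 7.85, 7.20 and 8.68 in irradiated vehicle skin and 7.42, 7.86 and 8.17 with RTA-408. All 6 arrays were above all baseline arrays, by at least 1.62 (adjusted p = 0.000396) with vehicle and at least 1.53 (adjusted p = 0.000609) with RTA-408, and both calls remained without any 1 array. On day 14 the vehicle signals were 6.22, 7.12 and 9.13, at least 1.20 above baseline (adjusted p = 0.00496), and without replicate 3 the adjusted p was 0.297. With RTA-408 they were 6.77, 6.94 and 7.16 on day 14 and 7.29, 6.80 and 7.13 on day 3, all above the baseline arrays, but neither difference passed (adjusted p = 0.12 and 0.0737). Without irradiated vehicle day 14 replicate 3 both did (adjusted p = 0.0238 and 0.0106).

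Birc3 encodes cIAP2, a ubiquitin ligase that joins the TNF receptor complex and protects cells from death. It was at the control level at baseline (5.70 to 6.83) and in both irradiated arms on days -4, 1 and 3, when no group mean exceeded 6.08. On day 7 the irradiated vehicle arrays gave 7.02, 7.27 and 7.67, above all baseline arrays and at least 1.02 higher (adjusted p = 0.0189, and up to 0.136 without replicates 2 or 3). The RTA-408 arrays of that day gave 6.99, 6.42 and 7.42, which overlap the baseline, and did not pass (adjusted p = 0.124). Without irradiated vehicle day 14 replicate 3 they did (adjusted p = 0.0475). The day 7 means of Birc3 were 6.94 with RTA-408 and 7.32 with vehicle, and with all arrays the drug comparison did not call it on any day. On day 14 the vehicle signals of 6.22, 7.47 and 8.94 were at least 1.24 higher (adjusted p = 0.00456, and 0.232 without replicate 3), while those with RTA-408 were 6.29, 6.57 and 6.51 (adjusted p = 0.62).

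Counted together, the genes called higher than baseline in irradiated vehicle skin were 1, 1, 3, 6 and 4 of 7 on days -4, 1, 3, 7 and 14. All features called higher were 6.46%, 5.08%, 4.57%, 7.92% and 9.47% on these days. With RTA-408 the counts were 1, 1, 4, 5 and 1 of 7, against 4.22%, 6.17%, 5.33%, 9.12% and 5.53% of all features. Tnf was the only measured gene not called on day 7 with vehicle, and Tnf and Birc3 were those not called with RTA-408. Called lower were 0 of 7 in either irradiated arm on each day, against 4.26%, 4.65%, 3.97%, 6.06% and 5.96% of all features with vehicle and 1.57%, 4.79%, 4.36%, 6.67% and 4.71% with RTA-408. At such shares 0 of 7 is no contrast with all features. Tnf, Nfkbie, Birc3 and Bcl3 were also at the control level at baseline, where a fall could hardly be measured. The median difference of the 7 genes on day 7 was 1.21 with vehicle and 1.16 with RTA-408, against 0.00 and 0.01 over all features. Both irradiated arms share the baseline arrays, so their counts are not independent.

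**Figure D2:**
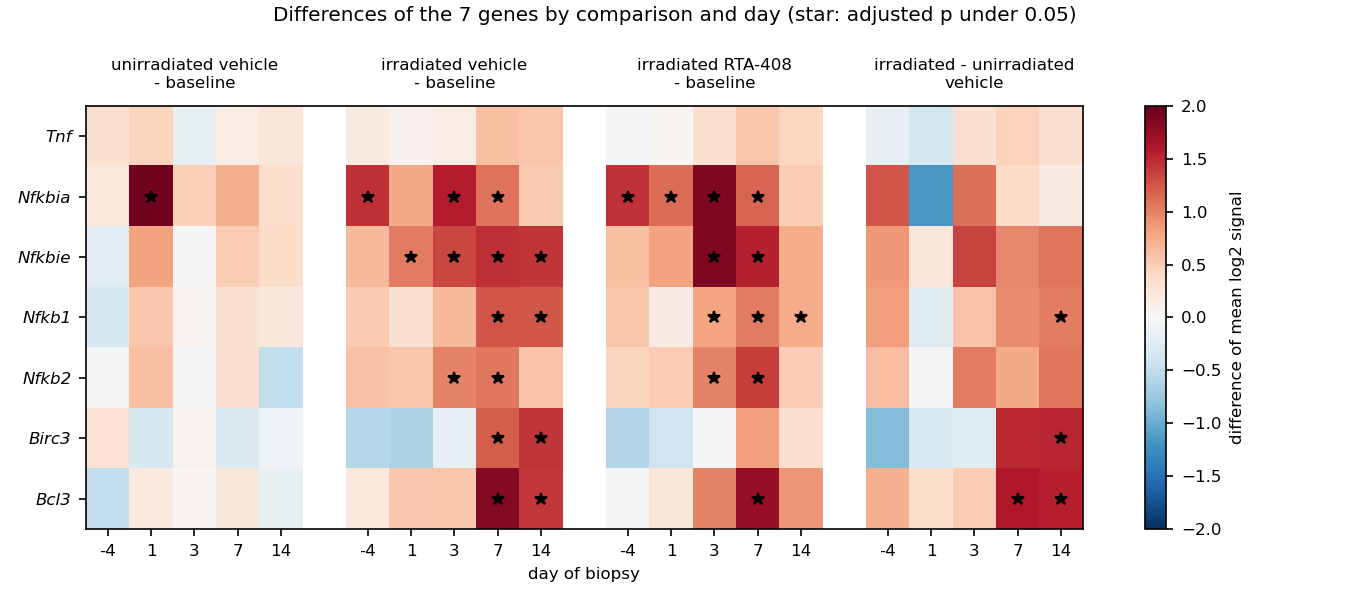
Fitted difference of mean log2 signal (colour, from -2 to 2) for each gene (rows) on each day (columns) in 4 comparisons, with a star where the adjusted p was under 0.05. Nfkbia carries a star on day -4 in both irradiated arms, and Bcl3 and Birc3 carry none before day 7.

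Most of these differences from baseline did not pass once the labelling batch was taken as a block. The 15 calls over the 5 days in irradiated vehicle skin became 1 and the 12 with RTA-408 became 1, which are those of Nfkbia on day -4. On day 7 with vehicle, Nfkb1 was then higher by 0.96 (adjusted p = 0.103) and Bcl3 by 1.22 (adjusted p = 0.184), and the share of all features called in either direction fell from 14% to 2.23%. Without the array of irradiated vehicle day 14 replicate 3, the day 14 counts were 1 of 7 with vehicle (Nfkb1, 0.90, adjusted p = 0.0169; 6.87% of all features in either direction) and 3 of 7 with RTA-408 (Nfkb1, Nfkbie and Bcl3; 12.6%).

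In unirradiated vehicle skin 1 of these genes was called against baseline, Nfkbia on day 1. With 2 arrays a day, a difference that was not called need not be absent. The median difference of the 7 genes was -0.03, 0.54, 0.04, 0.30 and 0.23 on days -4, 1, 3, 7 and 14. Over all features it was 0.03, 0.05, 0.00, 0.06 and 0.00. Of the 7 genes, 0, 1, 0, 0 and 0 were called on days -4, 1, 3, 7 and 14, against 0.0129%, 0.272%, 0%, 0.863% and 0% of all features called higher. None of the 7 was called lower, against 0.00431%, 0.0431%, 0%, 1.85% and 0%. With limma 3 of the 7 had an unadjusted p under 0.05 on day 1 (Nfkbia, Nfkbie and Nfkb1) and 0 on each other day, against 9.12%, 13.5%, 4.56%, 17.4% and 4.24% of all features on the 5 days. Nfkbia on day 1 gave 14.16, the highest signal of the gene on any of the 46 arrays, and 12.83. Both are above all baseline arrays, by 1.93 ± 0.43 (SE; adjusted p = 0.0328), within labelling batch I throughout. The mean of the keratinocyte markers was 17.12 and 16.54 on these arrays, against 14.90 to 16.20 at baseline, and 17.12 is the highest of all 46. The array with 14.16 also had a skeletal muscle mean of 9.80, against 18.46 on the other, and a neutrophil mean of 6.70. The part of these differences in the Nfkbia signal was not tested. The call was lost without replicate 1 of the unirradiated arm, without baseline replicates 1 or 3 and in a fit of the 2 groups alone (adjusted p up to 1.00). One label of the second array names day 3 in place of day 1, and its title was followed.

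The comparison of irradiated with unirradiated vehicle skin on the same day sets radiation against sham sessions, with vehicle and repeated punches in both arms. On days 7 and 14, 1 of the 2 unirradiated arrays is of rat 317, which has no array before day 7. The called genes were Nfkb1, Birc3 and Bcl3, on days 7 and 14. On days -4, 1 and 3 limma called 0 of the 7 genes, against 3.23%, 1.2% and 0.656% of all features called higher and 4.19%, 0.901% and 0.647% called lower, and 2, 1 and 3 of them had an unadjusted p under 0.05, against 21.4%, 16.4% and 13.6% of all features. On day -4 the largest of these, Nfkbia, was higher by 1.26 ± 0.48 (SE; adjusted p = 0.102). On day 1 Nfkbia differed by -1.17 ± 0.48 (SE; adjusted p = 0.187), since the unirradiated arrays were then at their highest. On day 3 Nfkbie was higher by 1.36 (at least 0.80 above the control level; adjusted p = 0.116). Without irradiated vehicle day 14 replicate 3, Nfkb1 was called on day -4 (0.84, adjusted p = 0.0445) and Nfkbie on day 3 (adjusted p = 0.0133). The Nfkb1 signals of day -4 did not overlap, with 10.71, 10.77 and 10.69 against 9.70 and 10.06, and differed by 0.85 within batch I.

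On day 7 Bcl3 was the 1 gene of the 7 called, against 2.69% of all features called higher (1.33% were called lower). Its irradiated signals of 7.85, 7.20 and 8.68 stood above the unirradiated 6.59 and 6.04, by 1.59 ± 0.46 (SE; adjusted p = 0.0424). Birc3 was at least 1.16 higher (7.02, 7.27 and 7.67 against 5.78 and 5.88; adjusted p = 0.0588), and Nfkb1 was 0.94 ± 0.30 higher (11.31, 11.46 and 11.57 against 10.56 and 10.45; adjusted p = 0.067). Neither pair of groups overlaps. Neither difference passed, but both did without irradiated vehicle day 14 replicate 3 (adjusted p = 0.0132 for Birc3 and 0.0312 for Nfkb1), as Bcl3 did (0.00353). The Bcl3 call was lost in a fit of the 2 groups alone and without any of 4 of the 5 arrays compared (adjusted p up to 0.341).

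On day 14, 3 of the 7 were called, against 4.43% of all features called higher (2.53% were called lower): Nfkb1 (1.02 ± 0.30 SE, adjusted p = 0.0325), Birc3 (at least 1.18, adjusted p = 0.0393) and Bcl3 (at least 1.28, adjusted p = 0.0339). The Nfkb1 signals of 10.72, 11.47 and 12.12 lay above 10.28 and 10.56. Those of Birc3 (6.22, 7.47 and 8.94 against 6.57 and 5.48) and Bcl3 (6.22, 7.12 and 9.13 against 6.27 and 5.59) overlap. Without irradiated vehicle replicate 3, 0 of the 7 were called on day 14 (1.51% of all features in either direction), with Nfkb1 higher by 0.68 (adjusted p = 0.312), Birc3 by 0.82 (0.423) and Bcl3 by 0.74 (0.416). Without either unirradiated array, or without irradiated replicate 2, calls were lost as well: Birc3 and Nfkb1 passed only without irradiated replicate 1.

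In this comparison both groups have arrays in batch III on days 3, 7 and 14, so that values within a batch can be given. With 2 arrays against 2, Bcl3 was higher by 0.62, 1.95 and 2.19 on these days, Birc3 by 0.14, 1.52 and 2.18, and Nfkb1 by 0.85, 0.93 and 1.38. With the batch as a block, 3 of the 7 were called on day 7 (Nfkb1, Birc3 and Bcl3) and 4 on day 14 (the same 3 and Nfkb2). Of all features, 5.37% on day 7 and 8.51% on day 14 were then called in either direction. With the block Bcl3 was higher by 1.80 ± 0.44 (SE; adjusted p = 0.013) on day 7. On day 7 the differences of Bcl3 and Birc3 were thus at least as large within the batch as over it. On day 14 the irradiated arrays in batch III are replicates 2 and 3, so that the values of that day rest on replicate 3.

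RTA-408 set against vehicle in irradiated skin called 0 of the 7 genes on each of the 5 days with limma. Of all features, 0.0474%, 0.0733%, 0.00431%, 0% and 0% were called in either direction on days -4, 1, 3, 7 and 14. At an unadjusted p under 0.05 there were 0 of 7 on days -4 to 7 and 1 on day 14 (Birc3), against 4.21%, 2.84%, 3.44%, 2.64% and 12.5% of all features on the 5 days. The median difference of the 7 genes was -0.05, -0.06, 0.17, -0.06 and -0.50 on these days, against -0.02, 0.00, -0.01, 0.02 and 0.01 over all features. The 95% intervals of the fit leave room for sizeable differences. On day 3 that of Nfkbie (7.47, 7.73 and 7.54 with RTA-408 against 7.15, 6.72 and 7.30 with vehicle) was -0.27 to 1.31. On day 7 those of Nfkb1, Nfkb2, Nfkbia and Bcl3 were -0.75 to 0.33, -0.32 to 0.97, -0.80 to 0.93 and -0.93 to 0.75.

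**Figure D3:**
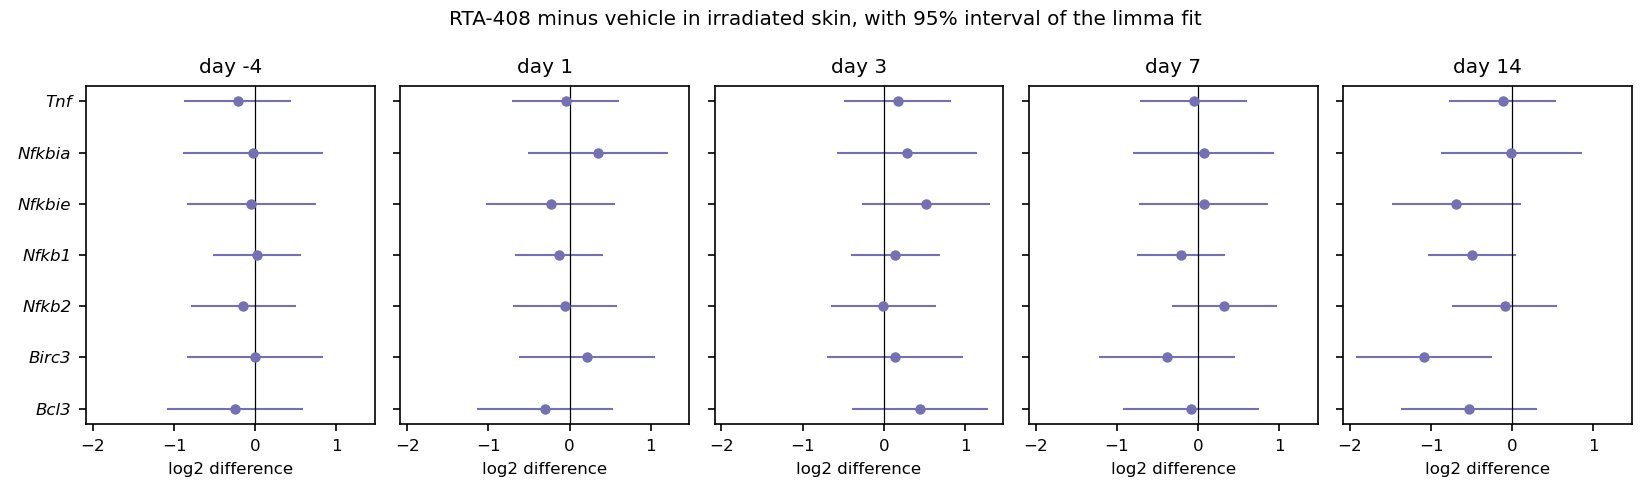
Difference of mean log2 signal between RTA-408 and vehicle in irradiated skin (horizontal axis) for each of the 7 genes (rows) on each day (panels), with points at the fitted difference and bars for the 95% interval. The intervals cover 0 for every gene and day but Birc3 on day 14, which runs from -1.92 to -0.25.

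The differences between RTA-408 and vehicle on day 14 were below 0 for all 6 genes other than Tnf, which was at the control level. Birc3 gave 6.29, 6.57 and 6.51 with RTA-408 and 6.22, 7.47 and 8.94 with vehicle. The groups overlap, and the means differed by -1.08 ± 0.41 (SE; adjusted p = 0.29). Here 1 vehicle array set the sign of 4 of these 6 genes. Without irradiated vehicle replicate 3, Nfkbia, Nfkbie, Nfkb2 and Bcl3 differed by 0.32, 0.12, 0.35 and 0.29, and Nfkb1 and Birc3 by -0.15 and -0.39. Without all arrays of vehicle replicate 1, Birc3 (-1.75, adjusted p = 0.00657) and Nfkb1 (-0.86, adjusted p = 0.0446) were called on day 14, where 5.11% of all features were called. Within batch III the difference of Birc3 was -1.80 (2 arrays against 2) and within batch II it was 0.35 (1 against 1).

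Tests of a change within an arm asked whether its means of days -4, 1, 3, 7 and 14 were equal, without the baseline. In irradiated vehicle skin limma's F-test called Birc3 (adjusted p = 0.000301), Bcl3 (0.0194) and Nfkb1 (0.0216), 3 of the 7 genes, where 14.2% of all features were called. In irradiated RTA-408 skin it called Bcl3 (0.0281), 1 of 7, where 6.26% were called, and 0 of 7 without any 1 of the RTA-408 replicates. Without irradiated vehicle day 14 replicate 3 it called Nfkbie, Birc3 and Bcl3 in RTA-408 skin. Birc3 remained called in vehicle skin with the labelling batch as a block (adjusted p = 0.00918) and without each vehicle replicate in turn (adjusted p up to 0.0116). Nfkb1 lost its call with that block and without vehicle replicates 2 or 3, and Bcl3 lost it with that block and without replicate 3. The test of whether the drug difference changed over the days called 0 of 7 (smallest adjusted p = 1.00, smallest unadjusted p = 0.177 for Birc3; 0.0129% of all features).

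Some rats gave both a baseline and later biopsies, which allows each to be set against itself. In the 2 irradiated vehicle rats with a baseline array, Nfkbia, Nfkbie, Nfkb1, Nfkb2 and Bcl3 were above the rat's own baseline in 2 of 2 on days 3, 7 and 14. The own baselines are in labelling batch I and the arrays of these days in batches II and III, so that batch and rise cannot be told apart. The share of all features that rose in both rats was not counted. Bcl3 rose by 0.80 and 1.97 on day 7, and Birc3 by 1.20 and 1.58. In the 2 RTA-408 rats Bcl3 was above its own baseline by 1.57 and 1.80 on day 7, and Birc3 by 0.62 in 1 rat and below it by 0.41 in the other. On days -4 and 1 Birc3 was below the own baseline in 2 of 2 rats of each irradiated arm, with each of these later signals below the control level. In the 2 unirradiated rats of day 1, within batch I, Nfkbia rose by 1.06 and 2.48 and Nfkbie by 0.87 and 1.05. Nfkb1 and Nfkb2 also rose in 2 of 2, and Tnf, Birc3 and Bcl3 in 1 of 2. On day 3 Nfkbie was above the own baseline in 2 of 2 of these rats (0.13 and 0.14) and each other gene in 1 of 2.

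The other genes of the pathway, 62 measured of 73 listed, were counted by role. In irradiated vehicle skin 11, 7, 10, 28 and 25 of the 62 were called higher than baseline on days -4, 1, 3, 7 and 14, and 1 lower, Sharpin on day -4. Their median difference on day 7 was 0.64, against 0.00 over all features. With RTA-408 the counts were 7, 9, 12, 29 and 9, with Sharpin again lower on day -4. Of all features 6.46%, 5.08%, 4.57%, 7.92% and 9.47% were called higher with vehicle on these days. With RTA-408 the shares were 4.22%, 6.17%, 5.33%, 9.12% and 5.53%. Called lower on day -4 were 4.26% with vehicle and 1.57% with RTA-408. Unirradiated skin had 2 higher, both on day 7 (0.863% of all features): Il1a, an alarm cytokine of keratinocytes (2.63), and Cyld, a deubiquitinase that restrains NF-kB (0.97). With the labelling batch as a block the day 7 counts were 8 with vehicle and 10 with RTA-408 (2.23% and 3.29% of all features in either direction), and those of day 14 were 3 and 0 (2.42% and 1.06%). Without irradiated vehicle day 14 replicate 3, 8 were called with vehicle on day 14 (6.87%).

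By role, day 7 in irradiated vehicle skin had 2 of 7 ligands higher (Il1b by 3.27 and Il1a by 2.35) and 4 of 7 receptors. The receptors were Tnfrsf1b, the second TNF receptor (2.26), the toll-like receptors Tlr4 (1.91) and Tlr2 (1.04), and Tnfrsf1a, the main TNF receptor (0.98). Of 18 adaptors and kinases 4 were higher, among them Myd88, the adaptor of toll-like and interleukin-1 receptors (2.08 ± 0.33 SE, adjusted p = 3.34e-05). Of 7 other inhibitors 5 were higher, among them Zc3h12a, an RNase that destroys cytokine transcripts (2.31), and Irak3, which blocks the Myd88 complex (1.63). Of 22 targets 13 were higher, led by Ptgs2, the inducible prostaglandin synthase (5.03 ± 0.77 SE, adjusted p = 1.83e-05), and the chemokines Ccl20 (3.47) and Ccl2 (3.45). The subunit gene Rela did not pass. Il1a was higher than baseline on each of the 5 days in both irradiated arms, by 2.30 to 2.95 with vehicle and 1.97 to 3.20 with RTA-408. Against unirradiated skin 5, 0, 4, 8 and 14 of the 62 were higher on the 5 days and 1 lower, Lta on day 1. Of all features 3.23%, 1.2%, 0.656%, 2.69% and 4.43% were called higher, and 0.901% lower on day 1. The day 14 count was 1 without irradiated vehicle replicate 3 (1.51% of all features in either direction) and 17 when the batch was a block (8.51%). The drug comparison called 0 of the 62 on each day, against 0.0474%, 0.0733%, 0.00431%, 0% and 0% of all features in either direction.

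Markers of immune cells were higher on day 7, when most of these genes were called. In irradiated vehicle skin of day 3, when Nfkbia was highest, the macrophage mean (8.16 to 9.44) overlapped the baseline (7.96 to 9.28). On day 7, 10 of 10 macrophage and monocyte markers, 4 of 6 neutrophil markers, 3 of 8 T cell markers, 3 of 6 fibroblast markers and 3 of 5 keratinocyte markers were called higher than baseline in each irradiated arm. In unirradiated skin it was 1 fibroblast marker. Of all features 7.92% with vehicle, 9.12% with RTA-408 and 0.863% in unirradiated skin were called higher on day 7. The mean of the 10 macrophage and monocyte markers ran from 7.96 to 9.28 at baseline and, on day 7, from 11.09 to 12.56 in irradiated vehicle skin, 11.78 to 12.39 with RTA-408 and 8.86 to 8.99 without radiation. The mean of the 6 neutrophil markers ran from 4.82 to 5.84 at baseline and from 8.43 to 9.18, 8.74 to 9.38 and 5.70 to 6.45 in these groups on day 7. On day 14 the macrophage mean was 10.53, 11.94 and 14.98 in irradiated vehicle skin and 10.66 to 11.33 with RTA-408. On day -4, when Nfkbia was already high, the neutrophil mean was 5.34 to 5.90 in irradiated vehicle skin and 5.47 to 5.70 with RTA-408, and the macrophage mean was 8.57 to 9.30 and 9.62 to 10.44. The keratinocyte mean of that day was 16.38 to 16.76 with vehicle, above all baseline arrays (14.90 to 16.20), and 16.06 to 16.66 with RTA-408. On day 3 it was 16.50 to 16.92 with vehicle and 16.37 to 16.73 with RTA-408, again above all baseline arrays, and the macrophage mean was 8.16 to 9.44 and 9.50 to 11.27. Across the 46 arrays the mean level of the 7 genes correlated with the neutrophil mean (r = 0.78), the macrophage mean (0.75), the mean of 8 T cell markers (0.75) and that of fibroblast markers (0.65). It did so less with endothelium (0.34) and 1 B cell marker (0.22), and with keratinocyte (0.09), skeletal muscle (-0.02) and adipocyte markers (-0.45). These are descriptions over arrays that share rats and batches. They include the array of irradiated vehicle day 14 replicate 3, which stands apart, and were not computed without it. Of the T cell markers Cd3e, Cd3d, Cd3g and Cd5 were above the controls on 0 of 46 arrays, Lck on 1 and Cd8a on 7. Only Cd4 and Cd2 were on all 46, so the T cell mean is a weak measure of T cells. Of the neutrophil markers Ngp was above on 0, Mmp8 on 1, Csf3r on 7 and Cxcr2 on 12. The B cell marker Cd79b was on 0. The part of immune cells and keratinocytes in the changes was not tested, and in whole biopsies fewer cells of a type and less RNA per cell cannot be told apart.

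**Figure D4:**
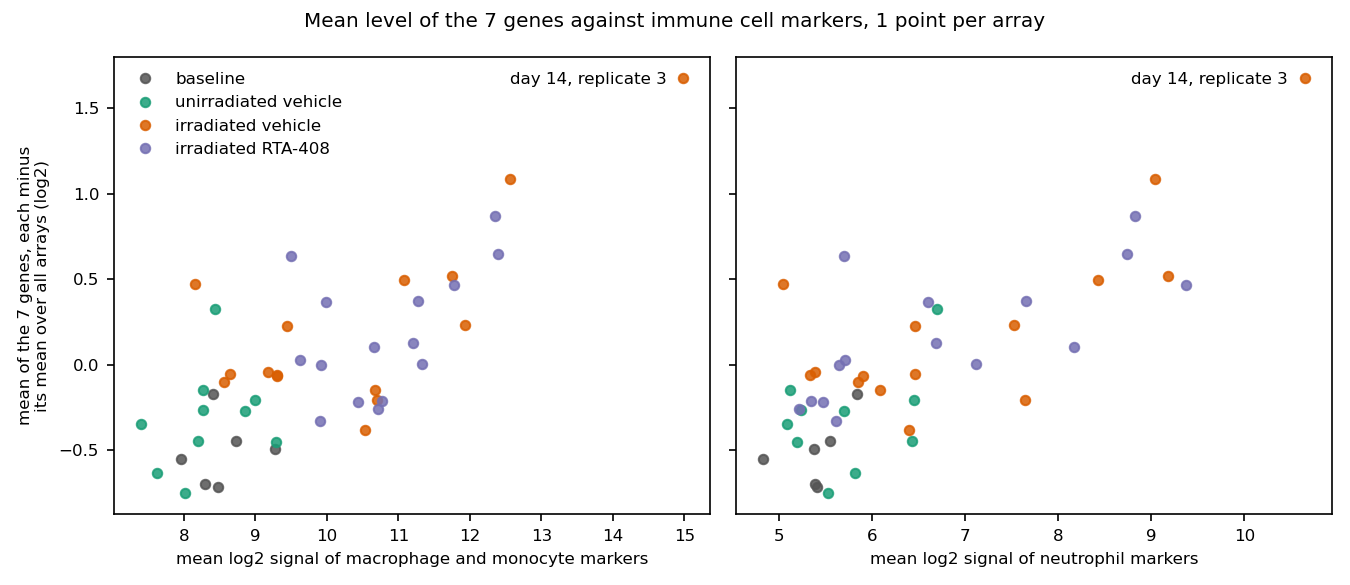
Mean level of the 7 genes on each array, each gene minus its mean over all arrays (vertical axis, log2), against the mean log2 signal of macrophage and monocyte markers (left) and neutrophil markers (right), with 1 point per array coloured by arm. The array of irradiated vehicle skin, day 14, replicate 3, is the highest on every axis, and the baseline and unirradiated arrays lie between 7.40 and 9.29 on the macrophage axis.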

How the data were processed

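The values are log2 signals that the authors deposited, 1 for each feature on each array. How they were normalized is not stated in the labels, and the values were used unchanged. The table has 24834 features; 23188 remained for testing once 1646 controls had been set aside. limma 3.58.1 (R 4.3.3) fitted 1 mean for each of 16 arm and day groups over 46 arrays (30 residual degrees of freedom), with Benjamini-Hochberg adjustment over all features and a threshold of 0.05. SD is within groups and SE and 95% intervals come from the fit. Where a group mean lay at or below the negative control median, each of its arrays was set to the higher of signal and median. Biopsies of 1 rat were treated as independent, with the rat as a random block as an alternative (consensus correlation 0.00672). Labelling batches were told from the dap and ERCCmix2step35 spike-ins. The members and lists were chosen with earlier results of these data known. Members are always named; of other pathway genes, up to 4 called per role and comparison. The fit was tested on simulated data. The number of arrays limits the precision.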

Additional observations from a re-analysis of the deposited data

How the results depend on the processing

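The counts over the 5 days were 0 for RTA-408 against vehicle, 4 for irradiated against unirradiated vehicle skin, 15, 12 and 1 for irradiated vehicle, irradiated RTA-408 and unirradiated skin against baseline, and 3, 1 and 0 for the changes over the days in vehicle skin, in RTA-408 skin and in the drug difference. Of the 32 called differences of single genes, quantile normalization kept 30, the set without 5797 dim features 32, weights for arrays 31, the rat block 32, the replicate block 23, the compared groups alone 23 and the labelling batch as a block 7, and 0 reversed. Array weights gave 8 calls against unirradiated skin and 4 for the change in RTA-408 skin. The replicate block, whose numbers stand for different rats in each arm (deviations of same-numbered arrays correlate from -0.378 to 0.254, with 8 of 35 over 0.1), gave 0 calls against unirradiated skin. The labelling batch as a block gave 7 against unirradiated skin, 1 and 1 against baseline, and 1 and 0 for the changes in vehicle and RTA-408 skin. The compared groups alone gave 2 against unirradiated skin, 0 for unirradiated skin against baseline, and 1 and 3 for the changes in vehicle and RTA-408 skin. Leaving out a replicate gave 0 to 2 for the drug, 0 to 8 against unirradiated skin, 10 to 15, 7 to 12 and 0 to 1 against baseline for vehicle, RTA-408 and unirradiated skin, 1 to 3 and 0 to 0 for the changes in vehicle and RTA-408 skin when a rat of the same arm was left out, and 0 to 0 for that in the drug difference. Leaving out a vehicle rat instead gave 1 to 3 for the change in RTA-408 skin. Without the array of irradiated vehicle day 14 replicate 3, chosen after the data were seen, the counts were 5 against unirradiated skin, 14 and 17 for vehicle and RTA-408 against baseline, and 3 for the change in RTA-408 skin. Signs that turned were all in the uncalled drug differences of day 14: Nfkbia with quantile normalization (0.051) and array weights (0.041), Tnf (0.38) and Nfkb2 (0.14) with array weights, and, leaving out an array, Tnf (-0.48 to 0.52), Nfkbia (-0.35 to 0.32), Nfkbie (-1.20 to 0.12), Nfkb2 (-0.43 to 0.35) and Bcl3 (-1.17 to 0.29). The causes were not tested. Each measured gene has 1 feature, so the mean over its features was not run. Signal near the controls limits Tnf, Nfkbie, Birc3 and Bcl3.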

Other observations

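The features whose signals followed the mean level of the 7 genes most closely over the 46 arrays, members left out, were Sbno2 (r = 0.91), Adam17 (0.89), Clic1 (0.88), Il4r (0.88) and Ralgds (0.88). Adam17 is the protease that sheds TNF and its receptors from the cell surface, and Il4r is the interleukin-4 receptor chain. Over the 16 group means their correlations were 0.92, 0.96, 0.93, 0.92 and 0.93. For Bcl3 the nearest were A3galt2 and Myd88 (0.91 each), for Nfkbie Mvp (0.89) and Icam1 (0.87), for Nfkb2 Icam1 (0.82) and Clic1 (0.81), and for Nfkb1 Sh3pxd2a (0.88) and Adam17 (0.85). For Birc3 they were Ctsz (0.87), a lysosomal protease, and Atp6v1b2 (0.84), a subunit of the lysosomal proton pump, and for Nfkbia Lamb3 (0.86) and Adcy3 (0.83). Among the 7 genes, the 21 pairs correlated with r from -0.04 to 0.83 and a median of 0.55. These values describe arrays that share rats and labelling batches, and no test was made of them. They include the array of irradiated vehicle day 14 replicate 3 and were not computed without it.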
